A study of Mus musculus with 12 samples.

Results

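The early response of wild-type colonocytes to dextran sodium sulfate (DSS), a sulfated polymer that injures the colon epithelium when mice drink it, was read from 6 of the 12 libraries of the series. The members were taken by their labels: 3 wild-type (WT) libraries from mice given 3% DSS for 3 days, numbered WT DSS 1 to 3, and 3 from untreated WT mice, numbered WT untreated 1 to 3. All 6 carry the intact C15ORF48/miR-147 locus, and the other 6 libraries of the series come from mice that lack it (KO), 3 untreated and 3 on DSS. Colonocytes, the epithelial cells of the colon, were isolated, and their polyadenylated RNA was sequenced as stranded libraries. The untreated and the DSS libraries stand in separate deposited tables that come from separate library series, so the effect of DSS and the effect of the library series cannot be told apart in any value below. A protocol note attached to all 12 libraries mentions DSS, but 6 of them carry no treatment in their own field, and that field set the groups. Nothing states that libraries within a group are different mice, so p-values reflect only the spread among libraries, which may be technical.

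DSS damages the barrier between the lumen and the mucosa and brings the epithelium into contact with bacteria. Repairing intestinal epithelium is known to leave part of its differentiated program and to express fetal and wound-associated genes. Interferons and interleukins from the mucosa act on colonocytes, which answer through antimicrobial, antigen presentation and guanylate-binding protein genes.

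The libraries held 21849029 to 23075055 reads in the WT untreated group and 15428255 to 16371607 in the WT DSS group. Levels are RPKM (reads scaled by gene length and by library size), rescaled jointly over the 6 libraries with factors of 0.990 to 1.02. Every DSS library was shallower than every untreated library, yet the number of genes at 1 RPKM or more was similar, 10951 to 11103 in the untreated and 10865 to 10930 in the DSS libraries. The colonocyte label held in the data: Epcam, the pan-epithelial adhesion molecule, was at 1315, 1168 and 1138 RPKM in the untreated and 1185, 1065 and 1367 RPKM in the DSS libraries, and the absorptive marker Car4 at 556, 454 and 449.6 against 529, 334 and 697. Car1, another absorptive marker, was also abundant, at 13957, 8539 and 11591 against 4804, 3349.6 and 6863, lower in every DSS library and not called. In contrast, the leukocyte marker Ptprc did not exceed 3.18 RPKM in any library. The deleted gene, AA467197 (C15ORF48 in human), was at 430.2 ± 9.26 RPKM (SD, n = 3) untreated and 434 ± 77 on DSS, with 4.62 and 7.79 in the KO groups. Its log2 fold change in WT was -0.003 ± 0.15 (SE, adjusted p = 0.994). Ndufa4, a respiratory subunit that competes with the C15ORF48 protein, was at 249 ± 28.8 and 306 ± 61 RPKM and was not called (adjusted p = 0.321).

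Of 11044 genes tested with limma on log2(RPKM + 1), 531 differed between WT DSS and WT untreated at an adjusted p (Benjamini-Hochberg) under 0.05, which is 4.81%. There were 219 higher genes (1.98%) and 312 lower genes (2.83%), and 87 of the 531 differed by 2-fold or more, 22 higher and 65 lower. The 3 DSS libraries did not overlap the 3 untreated libraries in 3350 genes (30.3%), among them all 531 called genes. The median log2 fold change of all tested genes was 0.01, and that of the called genes was 0.66 in size. The smallest adjusted p was 0.00723. With all genes above 0 kept, 17755 were tested and none was called, with 3269 at an unadjusted p under 0.05. Each library moved the count: leaving out untreated 1, 2 or 3 gave 267, 147 or 77 calls, and leaving out DSS 1, 2 or 3 gave 68, 116 or 1102. Without untreated 1 the calls were 134 higher and 133 lower. Of the 531 genes, 511 were tested in each fit without an untreated library and 524 in each without a DSS library, and none of those changed sign.

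**Figure D1:**
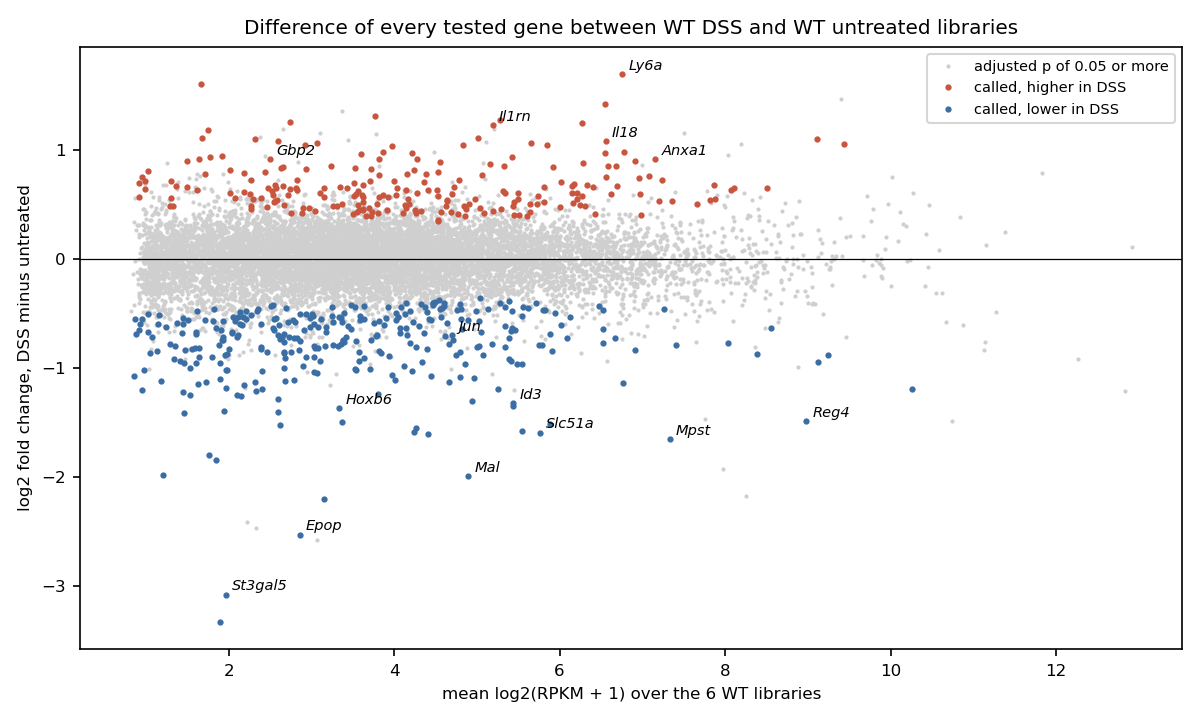
Each point is a gene tested in the WT libraries, placed by its mean log2(RPKM + 1) over the 6 libraries (x axis) and its log2 fold change, DSS minus untreated (y axis). Called genes are coloured by direction, 219 higher and 312 lower, with St3gal5 at -3.08 and Ly6a at 1.70 among the labelled genes.

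On the log2(RPKM + 1) scale the largest called rise was that of Ly6a (ENSMUSG00000075602.10, minus strand of chromosome 15, positions 74994877 to 74998031, GRCm38), the surface antigen Sca-1 that marks repairing, fetal-like epithelium in the mouse. It was at 57.5, 71.7 and 50.02 RPKM in the untreated libraries and 242, 119 and 252 in the DSS libraries. DSS 2 was the lowest of its group and still above every untreated library, with a log2 fold change of 1.70 ± 0.27 (SE, n = 3 against 3, adjusted p = 0.0172). Il1rn, the antagonist of the interleukin-1 receptor (ENSMUSG00000026981.15, plus strand of chromosome 2, positions 24336853 to 24351494), was at 29, 20.9 and 19.8 RPKM untreated and 54.9, 51.6 and 58.7 on DSS. The DSS libraries lay close together and clear of the others, with a log2 fold change of 1.23 ± 0.14 (SE, n = 3 against 3, adjusted p = 0.0113). Il18, an epithelial cytokine of the interleukin-1 family, was at 82.6, 61.8 and 50.6 RPKM untreated and 169, 97.6 and 153 on DSS, and again DSS 2 stood lowest of its group, with a log2 fold change of 1.08 ± 0.23 (SE, n = 3 against 3, adjusted p = 0.0355). Cldn8, a claudin that seals the tight junctions of the distal colon, rose from 20.7, 23.1 and 19.3 to 59.3, 43.4 and 38.9 RPKM, a log2 fold change of 1.11 ± 0.15 (SE, n = 3 against 3, adjusted p = 0.0114). Every DSS library stood well above every untreated library for this gene.

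The other large rises include enzymes, a pump and a noncoding RNA. From here on, parentheses after the levels hold the log2 fold change with its SE (n = 3 against 3) and adjusted p, and levels are given as untreated against DSS. Atp12a, the proton-potassium pump of the distal colon, was at 83.6, 39.7 and 35.4 RPKM untreated and 129.6, 105 and 119 on DSS, where untreated 1 came closest to the DSS libraries (1.25 ± 0.27, adjusted p = 0.0385). The cytochrome P450 gene Cyp2c68 rose from 26.3 to 59.97 RPKM, Sval1 from 394 to 811 RPKM, Sh3bgr from 3.49 to 9.39 RPKM and Itih2, a heavy chain of the inter-alpha-trypsin inhibitor, from 2.61 to 6.3 RPKM. Malat1, a noncoding RNA retained in the nucleus, was at 51.4, 51.5 and 67.2 RPKM untreated and 145, 224 and 109 on DSS (1.42 ± 0.23, adjusted p = 0.0198). Gzma, a granzyme of cytotoxic lymphocytes, was at 0.40, 0.69 and 1.52 against 2.54, 4.06 and 8.48 RPKM, a low level at which the groups did not overlap (1.61 ± 0.34, adjusted p = 0.0355). Beside it, Cd3e of the T cell receptor complex was at 2.15, 2.12 and 3.34 untreated and 1.4, 1.92 and 2.28 on DSS, and the summed level of the T cell and intraepithelial lymphocyte list was 21 to 39.8 RPKM in the untreated libraries and 27.3 to 45.3 in the DSS libraries. That sum includes Gzma itself, at 8.48 RPKM in DSS 3, the library with the highest sum. In bulk RNA, more cells of a type and more RNA per cell cannot be told apart. Gzma, Malat1, Cyp2c68, Sh3bgr, Atp12a, Sval1, Itih2, Il18 and Ly6a each lost their call when at least 1 particular library was left out, while Il1rn, Cldn8 and Rpl38 kept it without any 1 of the 6. Without untreated 3 or DSS 1 the adjusted p of Ly6a was 0.05 or more.

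**Figure D2:**
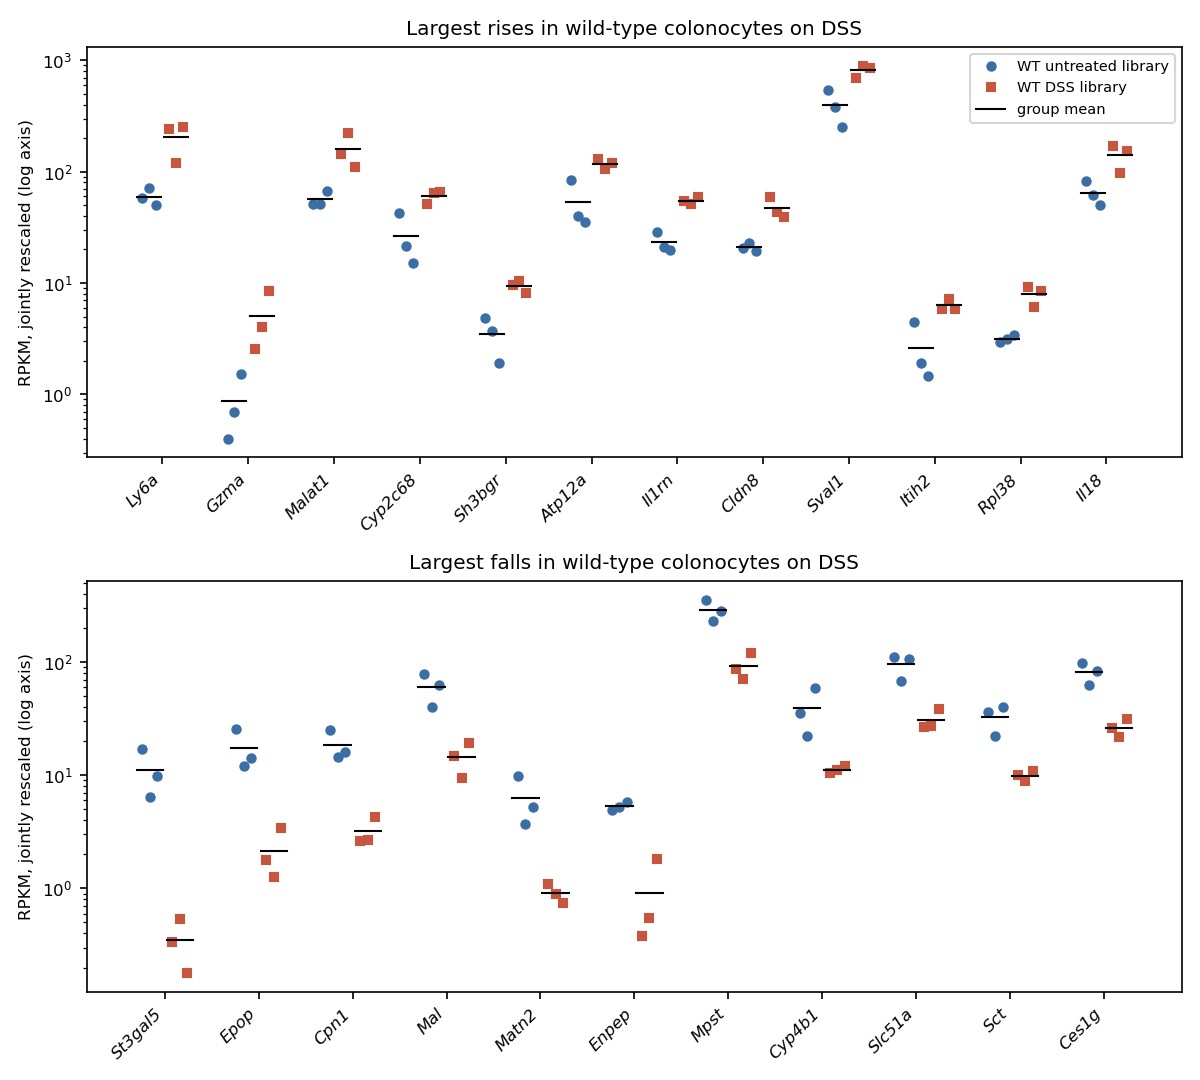
RPKM on a log axis in each WT library for the 12 largest rises (upper panel) and 11 of the 12 largest falls (lower panel) among called genes with a mean of at least 5 RPKM in the higher group. Circles are untreated libraries, squares are DSS libraries and bars are group means; no gene shown has overlapping groups, and St3gal5 lies at 6.41 to 17.2 RPKM in the untreated libraries and at 0.179 to 0.534 in the DSS libraries.

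Over all tested genes 4.81% were called, 1.98% higher and 2.83% lower, which is the background for each list count below. A list with 1 call gives a result about that gene, not about the list. The wound repair and fetal-like list held 18 tested genes, of which 6, Ly6a and Il1rn among them, rose and 1 fell, with a median log2 fold change of 0.29. Anxa1, a phospholipid-binding protein that acts in mucosal wound closure, was at 113, 109 and 88.5 RPKM untreated and 211, 162 and 217 on DSS. The groups were far apart, with a log2 fold change of 0.92 ± 0.15 (SE, n = 3 against 3, adjusted p = 0.0183). Anxa3 rose from 66.7 to 130.2 RPKM (0.98 ± 0.16, adjusted p = 0.0199) and Ccnd2, a D-type cyclin, from 55.6 to 90.2 RPKM (0.67 ± 0.15, adjusted p = 0.0409). Sprr1a, a cornified-envelope protein, fell from 21.1 to 8.24 RPKM (-1.24 ± 0.21, adjusted p = 0.0209). Several classical members were not called. Clu was at 5.3, 2.04 and 3.91 RPKM untreated and 2.19, 2.76 and 2.32 on DSS, and Areg at 9.82, 14.4 and 5.68 against 16.8, 8.98 and 15.4. Without 1 library, 2 (without DSS 1) to 8 members (without DSS 3) were called.

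Among 35 tested interferon response genes, 5 rose and 1 fell, with a median of 0.20 beside 0.01 for all genes. The 5 were guanylate-binding and immunity-related GTPases and a TRIM protein. Gbp2 was at 4.75, 2.07 and 2.94 RPKM untreated and 6.32, 7.14 and 6.91 on DSS, and Igtp (Irgm3) at 4.59, 2.92 and 3.91 against 5.87, 6.39 and 7.17. Irgm1, which with Igtp guards vacuoles against intracellular microbes, was at 22.5, 24.5 and 23 against 30.6, 34.1 and 34.3. In all 3 genes the groups stood apart by a small margin, with log2 fold changes of 0.92 ± 0.20 (adjusted p = 0.0387) for Gbp2, 0.65 ± 0.15 (adjusted p = 0.0412) for Igtp and 0.48 ± 0.09 (adjusted p = 0.0306) for Irgm1. Gbp3 rose from 0.548 to 1.56 RPKM (0.72 ± 0.12, adjusted p = 0.0211) and Trim30a from 1.53 to 3.3 RPKM (0.78 ± 0.16, adjusted p = 0.0367). The antiviral 2-5A synthetase gene Oas3 fell, from 4.26, 2.36 and 2.99 RPKM untreated to 1.31, 1.36 and 1.37 on DSS (-0.81 ± 0.16, adjusted p = 0.0337). The type I interferon targets Ifit1 and Isg15 gave 6.86, 5.56 and 11.2 against 6.27, 7.39 and 8.14 and 6.17, 5.92 and 8.57 against 7.51, 6.62 and 12 RPKM, overlapping in both. The 6 fits that left out a library called 0 (without untreated 3, DSS 1 or DSS 2) to 5 members (without untreated 1).

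The promoters of 4 of the risen genes are given to show where matches to 2 textbook recognition elements of interferon signalling lie. Whether these elements have a part in the rises was not tested. The sequences are RefSeq's for GRCm38.p6 and run from 250 bases before to 50 bases after the annotated start, written along the gene. Capitals mark the interferon-stimulated response element, searched as GAAA and GAAA with any 2 bases between, and in Igtp also the gamma-activated site, searched as TTC and GAA with any 3 bases between. Both strands were searched.
Gbp2 (chr3:142620413-142620712, plus strand): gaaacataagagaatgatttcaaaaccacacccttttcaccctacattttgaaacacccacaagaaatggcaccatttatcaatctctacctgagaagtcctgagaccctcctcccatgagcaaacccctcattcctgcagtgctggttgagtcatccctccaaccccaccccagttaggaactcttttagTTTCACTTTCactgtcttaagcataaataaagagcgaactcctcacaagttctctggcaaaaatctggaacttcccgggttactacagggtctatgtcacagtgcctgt
Gbp3 (chr3:142559794-142560093, plus strand): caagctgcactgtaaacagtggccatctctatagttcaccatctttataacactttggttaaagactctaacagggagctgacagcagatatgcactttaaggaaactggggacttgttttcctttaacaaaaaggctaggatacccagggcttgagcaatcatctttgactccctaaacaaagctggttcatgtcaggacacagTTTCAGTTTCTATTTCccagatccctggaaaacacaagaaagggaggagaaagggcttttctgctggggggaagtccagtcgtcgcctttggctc
Igtp (chr11:58199306-58199605, plus strand): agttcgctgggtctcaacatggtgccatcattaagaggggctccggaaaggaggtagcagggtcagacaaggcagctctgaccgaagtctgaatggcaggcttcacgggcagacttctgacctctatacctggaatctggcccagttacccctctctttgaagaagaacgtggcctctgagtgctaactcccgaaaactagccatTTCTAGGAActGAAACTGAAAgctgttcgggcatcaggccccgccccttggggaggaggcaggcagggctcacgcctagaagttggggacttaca
Irgm1 (chr11:48871371-48871670, minus strand): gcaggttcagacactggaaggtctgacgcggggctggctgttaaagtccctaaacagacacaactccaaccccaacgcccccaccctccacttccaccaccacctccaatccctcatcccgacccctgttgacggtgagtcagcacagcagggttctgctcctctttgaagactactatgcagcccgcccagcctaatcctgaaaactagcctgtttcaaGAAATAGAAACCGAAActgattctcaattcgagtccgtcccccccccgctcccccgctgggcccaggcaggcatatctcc
The Gbp2 promoter held 1 match to the first motif. The Gbp3 promoter, the first of its 2 in the table, and the Irgm1 promoter held 2 matches that overlap, and Igtp held 1 match to each motif with none overlapping. The first motif was in 3.43% of all 32817 promoters of the same length, the second in 8.29% and both in 0.451%. By gene, it was found in 5 of the 5 risen members, in Oas3, which fell, and in 12 of the 20 uncalled members with a promoter in the table. A match describes letters, not binding. Gbp and Irg genes have close paralogs that can share reads, so single members are uncertain.

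In each class of antigen presentation genes 1 member rose. Psmb8, an inducible subunit of the immunoproteasome, was the 1 call among 14 tested class I genes and was at 24.8, 21 and 16.4 RPKM untreated and 36.2, 31 and 37 on DSS (0.73 ± 0.15, adjusted p = 0.0341). All 6 tested class II genes had a positive log2 fold change with a median of 0.41, and H2-Aa was the 1 that rose. H2-Aa was at 2.54, 2.12 and 2.75 RPKM against 6.79, 4.65 and 3.9 (0.79 ± 0.17, adjusted p = 0.0379), and Cd74, the invariant chain, at 6.85, 3.53 and 6.51 against 27.2, 14.9 and 9.19 without a call (adjusted p = 0.0529). Beside them, the 14 macrophage and dendritic cell genes summed to 28.3 to 34.9 RPKM in the untreated libraries and 25.3 to 32.2 in the DSS libraries, with 9 of them under 1 RPKM in all 6. The largest part was Cd14, at 19.5, 18.5 and 14.4 RPKM against 22.9, 18.6 and 22.2 and not called, while Mrc1 was at 7.63, 5.9 and 4.53 against 0.36, 2.49 and 4.89 (adjusted p = 0.138) and C1qa fell, as given with the other cell types. The part of these cells in the class II values was not tested. Ido1, the interferon-inducible tryptophan dioxygenase, rose from 0.538 to 1.71 RPKM (0.81 ± 0.13, adjusted p = 0.0204) and was the 1 call among 14 tested antimicrobial and acute phase genes. Ido1 and Gbp3 lost their calls without untreated 2 or 3 and, being low, were not tested when a DSS library was left out. Psmb8 lost its call in 4 of the 6 fits without 1 library. For H2-Aa the call held without DSS 3 and in none of the other 5 refits that left out a library.

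The secreted Reg3 lectins, antimicrobial proteins of the inflamed colon, were not called. Reg3b was at 371, 661 and 273 RPKM untreated and 1041, 323 and 4250.2 on DSS, so DSS 3 was highest and DSS 2 lay inside the untreated range (adjusted p = 0.268). Reg3g showed the same order, 133, 222 and 58.8 against 228, 77.7 and 1094 RPKM (adjusted p = 0.409). Of the 10 neutrophil genes, Ly6g was the 1 tested, at 39.8, 21.4 and 15 RPKM untreated and 60.8, 38.4 and 71.3 on DSS, overlapping and not called (1.20 ± 0.32, adjusted p = 0.066). The other 9 were under 1 RPKM in all 6 libraries: S100a8 did not exceed 0.961 RPKM, and S100a9 0.731. The siderophore-binding Lcn2 reached 0.225 RPKM. Il1b and Tnf were also low, at most 0.792 and 1.14 RPKM. Of 9 tested cytokine and chemokine genes, Il18 and Ccl28 rose and Tgfb1 fell. Ccl28, a mucosal chemokine for plasma cells, was at 43, 53 and 36.7 RPKM untreated and 70.9, 75 and 64.3 on DSS, with no overlap (0.66 ± 0.14, adjusted p = 0.0354). Tgfb1 fell from 2.63 to 1.61 RPKM (-0.48 ± 0.11, adjusted p = 0.0497), and it lost its call under 12 of the 17 settings in which it was tested. Birc3, an inhibitor of apoptosis induced by NF-kappaB, rose from 13.7 to 19.8 RPKM (0.50 ± 0.10, adjusted p = 0.0317) as the 1 call of 14 in its list. Birc3 lost its call in 5 of the 6 fits without 1 library and Ccl28 in 4.

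Some factors that build ribosomes rose. In the list of nucleolar ribosome biogenesis factors, which was chosen after its values were seen, 12 of 54 tested genes rose, none fell and the median was 0.31. Gnl3 (nucleostemin) was at 10.9, 14.1 and 11.6 RPKM untreated and 17.4, 20.1 and 21.6 on DSS (0.65 ± 0.12, adjusted p = 0.0295), Nop58, a box C/D ribonucleoprotein core subunit, at 31.5, 34.4 and 29.9 against 42.7, 55.5 and 49.6 (0.61 ± 0.12, adjusted p = 0.0299), and Wdr43 at 11.7, 13.4 and 11.5 against 17.3, 21 and 18.5 (0.59 ± 0.11, adjusted p = 0.0268). In each of these the lowest DSS library was above the highest untreated library. Leaving out each library in turn gave calls in 0 (without untreated 1, untreated 3 or DSS 2) to 13 members (without DSS 3). Among 37 tested cytosolic ribosomal protein genes 9 rose and none fell, among them Rpl23 (60.2, 66.2 and 61.3 against 92.9, 106 and 103 RPKM, 0.68 ± 0.10, adjusted p = 0.0146) and Rpl38 (2.98, 3.11 and 3.41 against 9.29, 6.11 and 8.49 RPKM, 1.09 ± 0.15, adjusted p = 0.0114). Removing a single library left calls in 3 (without untreated 3) to 10 members (without DSS 3). The more abundant Rpl8 was at 993, 1046 and 922 RPKM untreated and 848, 888 and 1083 on DSS and was not called. Levels of single ribosomal protein genes are uncertain, since near-identical pseudogenes can take their reads. The ribosomal RNA precursor Rn45s held 1.02%, 2.23% and 2.04% of reads in the untreated and 1.27%, 0.337% and 0.504% in the DSS libraries, and its part in these values was not tested. In the unfolded protein list, 18 of 21 tested genes had a positive log2 fold change and Hsp90b1 (GRP94), a chaperone of the endoplasmic reticulum, was the 1 that rose, from 167, 201 and 192 to 259, 296 and 261 RPKM (0.54 ± 0.12, adjusted p = 0.0431), and it kept its call in 1 of the 6 fits without a library, that without DSS 3.

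**Figure D3:**
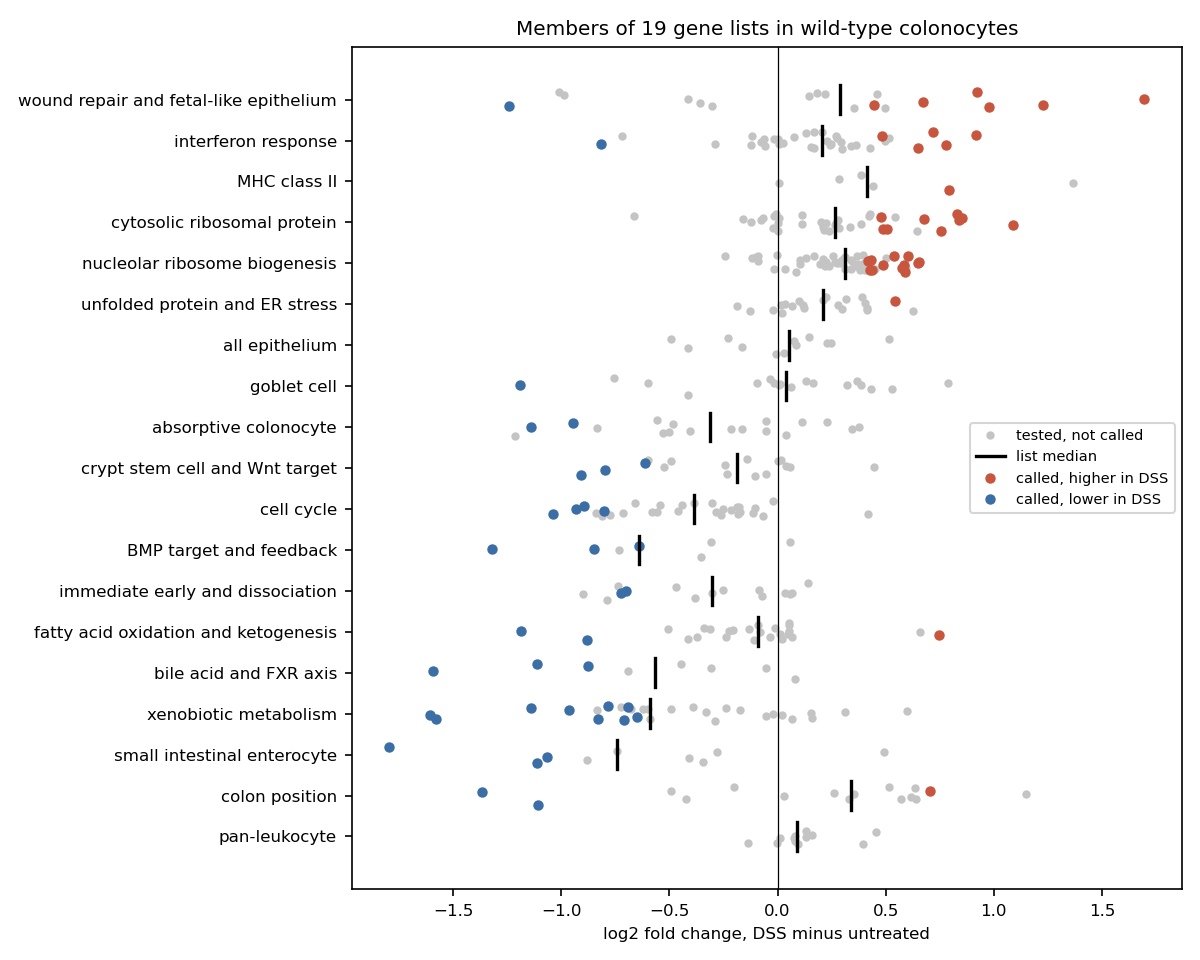
Log2 fold change (x axis, DSS minus untreated) of each tested member of 19 gene lists in the WT libraries. Red points rose, blue points fell, grey points were not called and the black bar is the list's median, which ranges from -0.74 for small intestinal enterocyte genes to 0.41 for MHC class II genes.

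The largest falls exceeded the largest rises on the log2(RPKM + 1) scale. St3gal5 (ENSMUSG00000056091.12, plus strand of chromosome 6, positions 72097592 to 72154571), the sialyltransferase that makes the ganglioside GM3, was at 17.2, 6.41 and 9.85 RPKM untreated and 0.338, 0.534 and 0.179 on DSS. It was present in every untreated library, highest in untreated 1, and under 1 RPKM in every DSS library, with a log2 fold change of -3.08 ± 0.28 (adjusted p = 0.00723) that understates the change of a gene this low. Epop, a partner of the Polycomb complex PRC2, was at 25.7, 11.9 and 14.3 RPKM untreated and 1.78, 1.25 and 3.4 on DSS (-2.53 ± 0.29, adjusted p = 0.0113), and Cpn1, the catalytic chain of carboxypeptidase N, at 25, 14.5 and 15.9 against 2.64, 2.69 and 4.28 (-2.20 ± 0.21, adjusted p = 0.00723). Mal, a raft proteolipid of apical sorting, was at 78.8, 40.4 and 62.7 against 14.9, 9.42 and 19.1 (-1.99 ± 0.27, adjusted p = 0.0114). In these 3 the highest DSS library reached less than the lowest untreated library by a wide margin.

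Enzymes and hormones followed. Mpst, which makes hydrogen sulfide from mercaptopyruvate, was at 353, 228 and 285 RPKM untreated and 85.9, 70.3 and 120.0 on DSS (-1.65 ± 0.21, adjusted p = 0.0114), and Sct, the hormone secretin, at 35.8, 22.1 and 39.97 against 10.004, 8.89 and 10.8 (-1.59 ± 0.19, adjusted p = 0.0114). Enpep, a brush border glutamyl aminopeptidase, was at 4.97, 5.19 and 5.8 against 0.379, 0.552 and 1.81 (-1.80 ± 0.23, adjusted p = 0.0114), with DSS 3 above the other DSS libraries. Matn2, a matrix protein, fell from 6.25 to 0.909 RPKM (-1.84 ± 0.25, adjusted p = 0.0114). Of the 12 largest falls, Epop, Cpn1, Mal, Matn2, Enpep, Mpst, Slc51a, Sct and Ces1g kept their call without any 1 library. Cyp4b1 lost it without DSS 1 or DSS 2, and St3gal5 kept it without any 1 DSS library but was not tested, being under the filter on low values, when an untreated library was left out.

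Detoxifying enzymes formed the list with the most falls. Of 29 tested xenobiotic metabolism genes 9 fell and none rose, with a median of -0.59. Ces1g, a carboxylesterase, was at 98, 62.7 and 82.7 RPKM untreated and 25.9, 21.7 and 31.5 on DSS (-1.58 ± 0.18, adjusted p = 0.0113). The P450 gene Cyp4b1 was at 35.7, 22.3 and 58.8 against 10.5, 11 and 12.1 (-1.61 ± 0.27, adjusted p = 0.021), and Cyp2c66 at 4.21, 2.88 and 3.86 against 1.21, 0.731 and 1.39 (-1.14 ± 0.16, adjusted p = 0.0126). In all 3 the groups were separate, and the DSS libraries lay closer to each other than the untreated ones for Cyp4b1. The glucuronosyltransferases Ugt2b5 and Ugt2b36 fell to 13.1 and 1.99 RPKM from 21.7 and 3.93. Cyp2c65, Cyp2d26, Gstm3 and the efflux pump Abcg2 also fell, by 0.65 to 0.96 on the log2 scale. Cyp2c55, an abundant P450, was at 3722, 2185 and 3268 RPKM untreated and 1635, 1262 and 2273 on DSS and was not called (adjusted p = 0.134). Fits on 5 of the 6 libraries called 2 (without DSS 1) to 15 members (without DSS 3). Reads of the Cyp2c and Ugt2b families may be split between close paralogs, so single members are uncertain, and Cyp2c68 of the same family rose.

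Bile acid and lipid genes were also among the falls. Of 8 tested bile acid genes 3 fell: Slc10a2, the apical sodium-bile acid transporter, from 51.3, 37.2 and 47.1 to 20.7, 23.5 and 28.2 RPKM (-0.88 ± 0.15, adjusted p = 0.0209), Slc51a, a subunit of the basolateral exporter, from 112, 67.7 and 107 to 26.5, 27 and 38.8 (-1.59 ± 0.21, adjusted p = 0.0114), and Fabp6, the cytosolic bile acid binder, from 19.1, 33.7 and 18.1 to 7.64, 9.23 and 13.9 (-1.11 ± 0.25, adjusted p = 0.0431). Nr1h4, the bile acid receptor FXR, was at 47, 48.7 and 53.2 against 58, 42.8 and 58.3 RPKM and was not called. Without 1 library, 1 (without untreated 3, DSS 1 or DSS 2) to 4 members (without DSS 3) were called. Fabp6 and Enpep are also genes of small intestinal enterocytes, and that list, with 3 of 9 tested genes lower (Fabp6, Enpep and the alkaline phosphatase Alpi), summed to 111 to 129 RPKM in the untreated libraries and 62.4 to 89.2 in the DSS libraries. Calls in that list ran from 1 (without untreated 1, untreated 3 or DSS 1) to 5 members (without DSS 3, 1 of them higher) when a library was left out. Of 25 tested genes of fatty acid oxidation and ketogenesis 1 rose and 2 fell. Pdk4, the kinase that blocks pyruvate dehydrogenase, fell from 7.41, 3.53 and 4.34 to 2.02, 0.984 and 1.89 RPKM (-1.19 ± 0.24, adjusted p = 0.0341). Acsm3, a medium-chain acyl-CoA synthetase, rose from 97.2 to 161 RPKM (0.75 ± 0.17, adjusted p = 0.0409), and Cpt1a, the carnitine transferase that admits fatty acids to mitochondria, was not called at 135, 115 and 143 against 138, 138 and 129. Scd1, the stearoyl-CoA desaturase, fell from 18, 15.5 and 19.3 to 9.74, 7.24 and 7.8 RPKM (-1.01 ± 0.13, adjusted p = 0.0114), as did Dgat1 (-0.41 ± 0.10, adjusted p = 0.0489). Scd1 kept its call without any 1 library, while Acsm3 and Dgat1 lost it in 5 of the 6 fits and Pdk4 in 3.

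Some genes of the crypt base and of cell division fell. Of 16 tested stem cell and Wnt target genes 3 fell: Smoc2 from 16.7, 17 and 14.5 to 6.11, 9.62 and 8.89 RPKM (-0.91 ± 0.15, adjusted p = 0.0209), the feedback inhibitor Axin2 from 8.37, 12.1 and 12.4 to 5.08, 6.56 and 5.8 (-0.80 ± 0.15, adjusted p = 0.0317) and Cd44 from 12.6 to 7.82 RPKM (-0.61 ± 0.12, adjusted p = 0.0317). Lgr5, the stem cell receptor for R-spondin, was at 2.54, 2.19 and 3.3 untreated and 1.11, 2.38 and 1.28 on DSS, where DSS 2 overlapped the untreated range (adjusted p = 0.135). Of 29 tested cell cycle genes 28 had a negative log2 fold change, the median was -0.39 and 4 fell. These were the mitotic kinases Aurkb (-0.93 ± 0.17, adjusted p = 0.0276) and Plk1 (-0.90 ± 0.18, adjusted p = 0.0337) and the nucleotide enzymes Rrm2 (-0.80 ± 0.18, adjusted p = 0.0409) and Tk1 (-1.04 ± 0.24, adjusted p = 0.0431). Mki67 was at 9.78, 18.2 and 17.5 RPKM untreated and 15.4, 13.3 and 7.7 on DSS, overlapping and not called. The 6 fits that left out a library called 0 (without untreated 2, untreated 3 or DSS 2) to 6 members (without DSS 3), and of the stem cell list 0 (without untreated 2, untreated 3 or DSS 1) to 3 members.

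In a list of bone morphogenetic protein (BMP) targets, chosen after its values were seen, 3 of 7 tested genes fell. Id3, a direct target that blocks basic helix-loop-helix factors, was at 63.9, 65.9 and 73.1 RPKM untreated and 28.7, 18.9 and 33.7 on DSS (-1.32 ± 0.18, adjusted p = 0.0114). The inhibitory SMAD genes Smad6 (7.26, 7.03 and 8.36 against 4.17, 2.93 and 4.23 RPKM, -0.85 ± 0.14, adjusted p = 0.0191) and Smad7 (-0.64 ± 0.14, adjusted p = 0.0385) also fell, and Id1 was at 141, 160.4 and 118 against 98.8, 59.2 and 97.2 without a call (adjusted p = 0.0672). Leaving out each library in turn gave calls in 1 (without untreated 3 or DSS 1) to 3 members (without DSS 3). The AP-1 genes Jun and Jund, which respond to stress and to cell dissociation, were the 2 calls among 15 immediate early genes. Jun was at 32.8, 33.3 and 30.7 RPKM untreated and 19.6, 18.6 and 20.3 on DSS (-0.70 ± 0.09, adjusted p = 0.0114), and Jund at 135, 129.9 and 124 against 81.3, 69.98 and 83.8 (-0.72 ± 0.11, adjusted p = 0.0146), each tight within its group. Fos was at 38.5, 65.3 and 40.4 against 38.9, 26.9 and 42.9, overlapping.

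Some markers of mature cell types passed the test, beside 4.81% of all tested genes. None of 12 pan-epithelial and 12 tuft cell genes was called. The 18 absorptive genes had a median log2 fold change of -0.31, with 13 below 0, and 2 of them were called. Of 18 absorptive genes Fabp2, an intracellular fatty acid binder, fell from 884, 739 and 707 to 388, 308 and 539 RPKM (-0.95 ± 0.21, adjusted p = 0.0412) and Tmigd1, an adhesion molecule of the brush border, from 162 to 76.1 RPKM (-1.14 ± 0.24, adjusted p = 0.0355). Car1, a carbonic anhydrase, was at 13957, 8539 and 11591 RPKM untreated and 4804, 3349.6 and 6863 on DSS, without overlap and without a call (adjusted p = 0.104). Spink4 was the 1 call among 18 goblet genes and fell from 1394, 2451 and 1873 to 717, 685 and 1093 RPKM (-1.19 ± 0.27, adjusted p = 0.0412), while Muc2, the gel-forming mucin, ranged from 169 to 1109 within the untreated group and from 386 to 619 on DSS. Reg4, the lectin of deep crypt secretory cells (ENSMUSG00000027876.4, plus strand of chromosome 3, positions 98222156 to 98236748), was at 747, 1078 and 744 against 236, 352 and 328 RPKM, clearly separate (-1.48 ± 0.21, adjusted p = 0.0121). Reg4 lost its call without DSS 1, Spink4 in 4 of the 6 fits that left out a library, and Fabp2 and Tmigd1 in 5 of the 6, all but the one without DSS 3. Ang4 and Retnlb, other secretory genes, spanned 64.2 to 3131 and 105 to 1530.5 RPKM within the untreated group alone. Among 17 enteroendocrine genes Tac1, the substance P precursor, rose from 4.71 to 7.86 RPKM (0.63 ± 0.12, adjusted p = 0.0318), and Sct and the somatostatin gene Sst (-0.54 ± 0.13, adjusted p = 0.0451) fell. Sst lost its call in all 6 fits without 1 library and was called in 7 of 18 settings, and Tac1 lost its call without untreated 2, untreated 3 or DSS 1.

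Single genes of transport, sugar and signalling lists passed the test. Slc5a8, the sodium-coupled transporter of short-chain fatty acids, rose from 107, 114 and 85 to 152, 166 and 144 RPKM (0.60 ± 0.13, adjusted p = 0.0385), and Slc16a9 of the monocarboxylate family fell (-0.69 ± 0.13, adjusted p = 0.0317). The water channel Aqp1 fell from 58.4 to 30.2 RPKM (-0.93 ± 0.16, adjusted p = 0.021) and Slc30a10, a manganese exporter, from 18.4 to 9.73 RPKM (-0.87 ± 0.16, adjusted p = 0.0289). Slc6a4, the serotonin transporter, rose from 9.06, 7.45 and 6.54 to 13.5, 14.4 and 15.3 RPKM, with the DSS libraries within a narrow range (0.84 ± 0.12, adjusted p = 0.0146). Adh1, which oxidises ethanol and retinol, rose from 611, 515 and 354 to 909, 1124 and 981 (1.05 ± 0.21, adjusted p = 0.0346). Of 23 mucin glycosylation genes St6gal1 rose from 28.6, 23 and 25 to 44.5, 51.4 and 46.8 RPKM (0.88 ± 0.11, adjusted p = 0.0114), and besides St3gal5 the glycosyltransferases A4gnt (-1.03 ± 0.18, adjusted p = 0.021) and B4galnt2 (-0.63 ± 0.14, adjusted p = 0.0412) fell. Slc6a4 and St6gal1 kept their call without any 1 library, while Slc5a8 lost it in 5 of the 6 such fits, Slc16a9, Aqp1, Adh1 and A4gnt in 4 and Slc30a10 in 3. None of 21 tested sodium and chloride transport genes, 15 tricarboxylic acid cycle genes, 34 complex I genes, 34 genes of complexes II to V, 26 cell death genes, 21 NRF2 targets or 16 clock genes was called. Their medians lay between -0.09 and 0.12.

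Some genes that mark position along the colon differed between the groups. Hoxb6 (ENSMUSG00000000690.5, plus strand of chromosome 11, positions 96292476 to 96301569) was at 15.4, 13.3 and 17.4 RPKM untreated and 5.85, 4.41 and 5.75 on DSS (-1.37 ± 0.14, adjusted p = 0.00723), and its neighbour Hoxb8 at 8.41, 7.73 and 11.8 against 3.31, 3.9 and 4.01 (-1.11 ± 0.15, adjusted p = 0.0114). Hoxa13, of the posterior end of its cluster, rose from 15.5, 17.9 and 12.3 to 26.4, 25.9 and 23.2 RPKM (0.70 ± 0.13, adjusted p = 0.0295). Those 3 were the calls among 16 tested genes of the list. Hoxd13 was at 18.2, 7.65 and 3.76 untreated and 16.4, 29.9 and 15 on DSS, and Hoxb13 at 198, 139.7 and 88.5 against 193, 241 and 191, where untreated 1 lay within the DSS range for both. Hoxb6 and Hoxb8 kept their call without any 1 library and Hoxa13 lost it without untreated 3, DSS 1 or DSS 2. The part of colon position in the rises and falls of the genes described above was not tested.

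**Figure D4:**
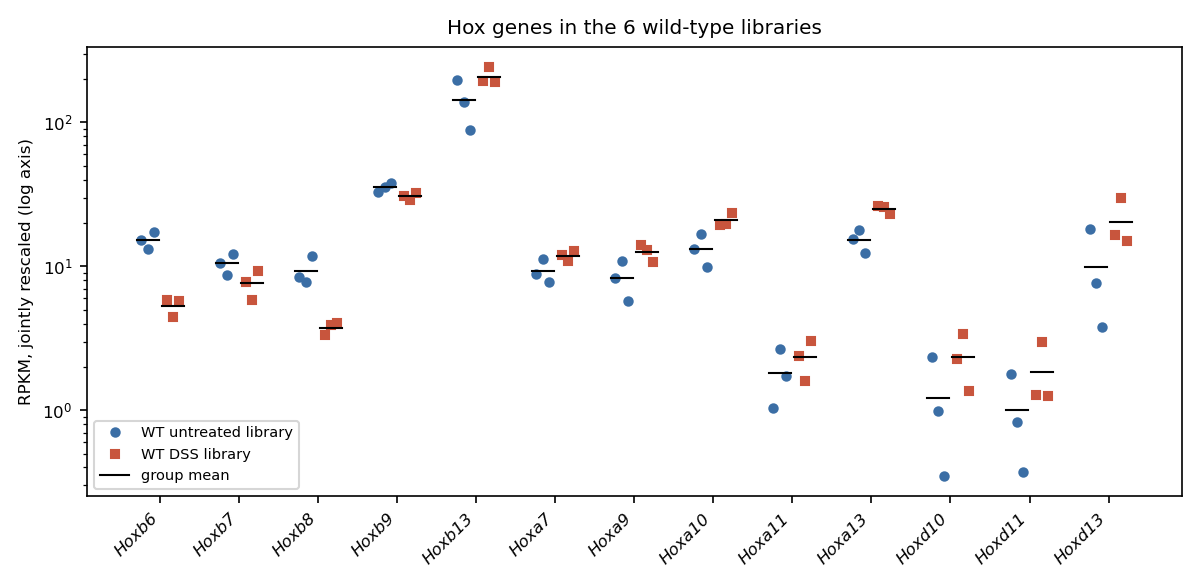
RPKM on a log axis of 13 Hox genes in each WT library, circles untreated, squares DSS and bars the group means. Hoxb6 and Hoxb8 lie at 7.73 to 17.4 RPKM in the untreated and 3.31 to 5.85 in the DSS libraries, and Hoxd13 runs from 3.76 to 18.2 RPKM within the untreated group.

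Markers of other cell types were present at varying levels. The 17 pan-leukocyte genes summed to 38.8 to 51.9 RPKM in the untreated libraries and 43 to 51.2 in the DSS libraries, and none of the 12 tested was called. C1qa, a complement gene of macrophages, fell from 4.56, 1.85 and 5.09 to 0.118, 0.33 and 0.058 RPKM (-1.98 ± 0.26, adjusted p = 0.0114), while its partners C1qb and C1qc did not exceed 0.378 and 0.339 RPKM in any WT library. C1qa kept its call without any 1 DSS library but, being under the filter on low values, was not tested when an untreated library was left out. The 10 pancreatic acinar genes summed to 134 to 279.6 RPKM in the untreated libraries and 273 to 306 in the DSS libraries, nearly all of it Cela1, an elastase at 279.6, 195 and 134 RPKM against 273, 302 and 306 that was not called (adjusted p = 0.154), and the other 9 were under 1 RPKM in all 6. The 6 Paneth cell genes summed to 3.98 to 89 RPKM in the untreated libraries and 1.82 to 9.13 in the DSS libraries, and neither of the 2 tested was called. Itln1 made up most of the sum in every library but untreated 1. Fibroblast genes summed to 39.4 RPKM in untreated 3 and to 3.47 to 6.73 in the other 5 libraries. Smooth muscle genes summed to 12.1 to 17.4 RPKM in the untreated libraries and 11.1 to 15.3 in the DSS libraries. Of these 8 genes, 7 were under 1 RPKM in all 6 libraries, so nearly all of the sum was 1 gene. Endothelial genes did not exceed 3.21 RPKM in sum, and red cell genes 3.32, with 4 of the 5 red cell genes at 0 in all 6 libraries. The 1 red cell gene tested fell, a call that no fit without 1 library made. B and plasma cell genes and enteric glia genes were each under 1 RPKM in all 6.

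The KO libraries give the same contrast in mice without the locus. They lie in the same 2 tables, so they do not separate DSS from the library series, and their control libraries are not those of the WT contrast. There, 1634 of 11053 tested genes were called (14.8%), 860 of them higher (7.78% of those tested). Of the 531 genes called in WT, 524 were tested in KO, and 426 of them (81.3%) had the same sign while 98 had the opposite one. The share of same signs over all tested genes was not computed, so the 81.3% has no background to stand beside. The sign was shared by 178 of 216 genes that rose in WT and 248 of 308 that fell, and 163 were called in KO with the same sign and 9 with the other. Ly6a was at 94.1 and 422 RPKM in KO (log2 fold change 2.07, adjusted p = 0.00917), Il18 at 74.8 and 182 (1.30, adjusted p = 0.014) and Il1rn at 24.8 and 49.1 (0.96, adjusted p = 0.00878). Cldn8, Sval1 and Anxa1 also rose in KO, by 1.14, 1.21 and 1.12, and Axin2 (-1.35), Smoc2 (-0.90), Scd1 (-1.25), Smad6 (-0.84) and Jund (-0.81) fell there.

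Several of the largest WT falls differed between the genotypes. The difference between the WT and the KO log2 fold change was tested over 12 libraries in 11308 genes, 138 were called (1.22%), and 50 of them were called in WT. St3gal5 was at 8.71 ± 1.52 RPKM in KO untreated and 8.92 ± 6.9 in KO DSS (SD, n = 3), and its WT minus KO difference was -2.91 (adjusted p = 0.0373). Mal was at 50.4 ± 13.5 and 122 ± 89.6 RPKM in KO and was not called there (log2 fold change 1.05, adjusted p = 0.14). Its WT minus KO difference was -3.05 (adjusted p = 0.0373). Both genes scattered widely among the KO DSS libraries. The xenobiotic metabolism list had a median of -0.59 in WT and -0.003 in KO, and the bile acid list -0.57 and 0.23. Of the genes of colon position, Hoxa13 was at 17.7 and 13.8 RPKM in KO, and its WT minus KO difference of 1.03 was called (adjusted p = 0.0337). Hoxb6 was at 14.7 and 12.6 RPKM, with a difference of -1.16 that was not called (adjusted p = 0.0631). The part of colon position in these differences was not tested.

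**Figure D5:**
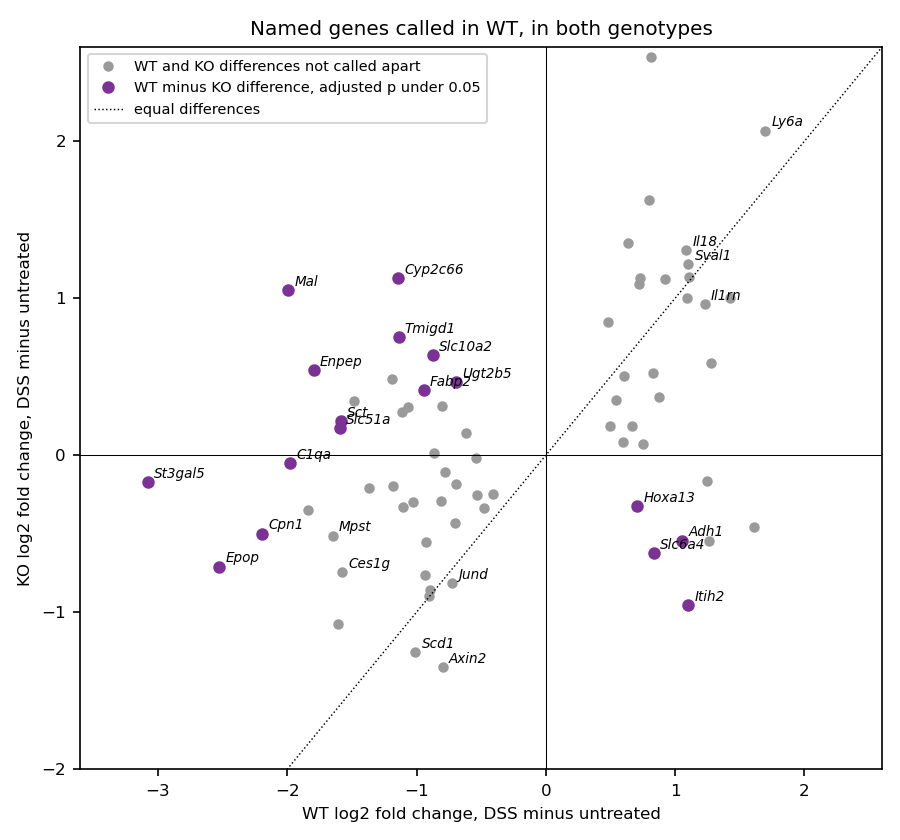
Log2 fold change, DSS minus untreated, in WT (x axis) and KO (y axis) for 73 named genes called in WT and tested in KO. Purple points are the 17 whose WT minus KO difference had an adjusted p under 0.05, among them St3gal5 and Mal at the left, and the dotted line marks equal differences.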

How the data were processed

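The study measured polyadenylated RNA of colonocytes from 12 libraries. Per the submitters' processing notes, the tools were TopHat2 2.1.1 and edgeR 3.30.3 and the build GRCm38 (mm10). The counter is not given in the sources used here, and neither is the annotation. The authors deposited RPKM per library in 2 tables of 23794 gene lines, per the file headers, beside their own log2 values, F score, p-value and false discovery rate, which were not used. Whether the authors scaled both tables together is not stated.

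The tables were joined by gene symbol. Per table, 26 names read as dates, and 4 lines with a repeated name were left out, leaving 23790 genes. RPKM of the 6 WT libraries were rescaled jointly by the median ratio to the geometric mean. Values were whole multiples of 1 read in 100% of 18398 genes with a value, within 0.02 reads, which gave the library totals. No sample column was left unmapped (0).

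Genes with 1 RPKM or more in at least 3 of 6 libraries were tested on log2(RPKM + 1) with limma 3.58.1 (R 4.3.3) and its trend option, 2-sided. P-values were Benjamini-Hochberg adjusted over all tested genes, and those under 0.05 were calls. Log2 fold change here understates the change of low genes. The KO contrast was fitted in the same way, and WT minus KO over all 12 libraries. The fit was also run on simulated reads with a fixed dispersion and no effect of library series or trend by gene length. That run cannot show how the fit handles such effects in these data.

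Named genes are AA467197, Ndufa4, the 12 largest rises and 12 largest falls among non-overlapping called genes of 5 RPKM or more, and, from each of 54 lists, the first 3 members and up to 3 called members with the smallest adjusted p. Some genes that the rule names are not reported here. Other list members named were chosen after their values were seen. The members, lists and tests were chosen with earlier results of these data known. Alternatives were 2 pseudocounts, 2 filters, 3 scalings, a correction for gene length, all 12 libraries, limma-voom on recovered reads, robust variances, a 2-fold minimum, the replicate block and leaving out each library. GENCODE vM21 (GRCm38) gave the gene positions, counted from 1, and RefSeq the promoters.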

Additional observations from a re-analysis of the deposited data

Results flagged for a closer look

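For 18 named genes the WT and the KO log2 fold changes on DSS differed by the test of that difference over the 12 libraries (limma, adjusted p of 0.00752 to 0.0472). All values here are WT minus KO log2 fold changes. The differences share the confounding of DSS with the library series.

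Genes that fell in WT and did not fall to the same degree in KO were Mal (-3.05), St3gal5 (-2.91), Enpep (-2.34), Cyp2c66 (-2.27), C1qa (-1.93), Tmigd1 (-1.89), Epop (-1.82), Sct (-1.81), Slc51a (-1.77), Cpn1 (-1.700), Slc10a2 (-1.51), Fabp2 (-1.36) and Ugt2b5 (-1.16). Genes that rose in WT with a negative log2 fold change in KO were Itih2 (2.05), Adh1 (1.596), Slc6a4 (1.46) and Hoxa13 (1.03). Slc6a4 had the smallest adjusted p of the 18 and was at 11.1 RPKM in KO untreated and 6.83 in KO DSS.

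Scnn1a, a subunit of the epithelial sodium channel, was not called in WT. It gave 0.83, with 49.7 ± 1.06 and 51 ± 1.8 RPKM in WT (SD, n = 3) and means of 57.9 and 32.9 in KO.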

How the results depend on the processing

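The 531 calls in WT (219 higher, 312 lower) became 87 (22 and 65) with a 2-fold minimum, 1324 (637 and 687) with the trend by gene length taken out of each library, and 0 of either direction with no filter on low values, where 3269 genes had an unadjusted p under 0.05. The median log2 fold change ran from -0.05 in the shortest 10% of genes to 0.11 in the longest 10%. Leaving out 1 library gave 68 to 1102 calls, 18 to 434 higher and 50 to 668 lower. The 86 called members of any gene list became 156 without the length trend, 0 without a filter and 21 to 139 without 1 library. Same-number correlations of deviations from the group mean were 0.04, -0.13 and -0.19, beside -0.07 to 0.19 between libraries of different number. Centred on means of 3 libraries, these values cannot decide whether the replicate numbers pair the libraries. A fit with the replicate block gave 262 calls, 93 higher and 169 lower. The other scalings, pseudocounts, the 5 RPKM filter, voom, robust variances and all 12 libraries gave 432 to 608 calls. The share of higher calls was 41.2% in the reported fit and 34.8% with RPKM as deposited, and it ran from 26.0% without untreated 3 to 50.2% without untreated 1. No called gene changed sign under any of the 18 settings in which it was tested, and Egr1, uncalled here (-0.09), ran from -0.52 to 0.77 over the fits without 1 library and was called at 0.77 without untreated 2. All 78 called named genes kept their direction. The counter's treatment of shared reads, the separate library series and the 3 libraries per group limit every value; the causes of the changes under other settings were not tested.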

Other observations

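Some secretory and immediate early genes ranged widely within the untreated group. Itln1, a lectin of goblet and Paneth cells, was at 1.62, 85 and 36.6 RPKM in the untreated libraries and 1.35, 1.1 and 7.17 on DSS, and Ang4, an antimicrobial ribonuclease of secretory cells, was at 64.2, 3131 and 1325 against 87.3, 32.4 and 997. Retnlb, a goblet cell hormone, followed the same order of libraries at 105, 1530.5 and 719 against 116, 38.4 and 459 RPKM. Untreated 2 was highest for all 3 genes, DSS 3 was the highest DSS library, and none was called. Egr1, an immediate early factor, was at 3.14, 23.4 and 3.07 untreated and 5.74, 5.7 and 6.62 on DSS, so untreated 2 stood alone. Msln, a marker of mesothelium, reached 4.7 RPKM in untreated 3, the library with the highest fibroblast sum, and 0.236 or less in the others.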
